A study of Homo sapiens with 6 samples.

Results

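A group of probes that carry hsa-miR names and stand among the bright ones of a miRNA array was described in HuH7 cells with and without cisplatin. They are hsa-miR-4454, hsa-miR-1260b, hsa-miR-5100, hsa-miR-4286, hsa-miR-4284 and hsa-miR-1260a, and they were chosen by name, 6 of the 2019 human probes on the array. They were picked because their signal was high in these same arrays, so their brightness is given as a description, with no test. HuH7 is an established human hepatocellular carcinoma cell line, and cisplatin is a platinum drug that crosslinks DNA. The 3 control arrays held total RNA of cells kept without the drug, and the 3 cisplatin arrays that of cells given 1 µg/ml for 24 h. All cells grew in the same serum-supplemented medium, and each sample was hybridised alone in 1 colour. Samples carry the numbers 1 to 3 within a group. Whether they came from separate cultures is not said, so p-values reflect the spread among these arrays alone, and that spread may be technical.

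miRNAs are short RNAs cut from hairpin precursors, and they find their targets mainly through the seed near their 5′ end. Catalogues of miRNAs also hold entries that resemble pieces of abundant structural RNA. Transfer RNA is one such RNA: it carries amino acids to the ribosome, ends in the bases CCA in its mature form, and is cut into fragments in stressed cells. Ribosomal RNA, the core of the ribosome, is another source from which such fragments are known. An array probe reports whatever labelled RNA pairs with it, so a bright signal under a miRNA name does not say from which transcript the RNA came. Neither transfer nor ribosomal RNA sequences were used here, and the origin of the RNA bound by these probes was not tested.

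RefSeq (GRCh38.p14) gave mature sequences for 5 of the 6 entries. They are shown because the members' resemblance to each other, and the seeds that would define them as miRNAs, can be read from them. Capitals mark the seed, bases 2 to 8.
hsa-miR-4454: gGAUCCGAgucacggcacca
hsa-miR-1260b: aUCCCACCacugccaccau
hsa-miR-1260a: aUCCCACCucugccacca
hsa-miR-5100: uUCAGAUCccagcggugccucu
hsa-miR-4284: gGGCUCACaucaccccau
hsa-miR-1260a and hsa-miR-1260b share the seed UCCCACC. The other 3 seeds were each found in 1 mature sequence of the table, the member's own.

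hsa-miR-1260a and hsa-miR-1260b were nearly the same sequence. Compared from base 1 of both, 17 of 18 bases were identical, the difference being U9A (hsa-miR-1260a has the first base, hsa-miR-1260b the last), and hsa-miR-1260b had 1 further base at its 3′ end. Outside this pair the members shared only short runs. AUCCCA (6 bases) stands in hsa-miR-5100 and in hsa-miR-1260a and hsa-miR-1260b, and CACCA (5 bases) in hsa-miR-4454 and in the same pair.

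Bases CCA at the 3′ end, counted on the RNA strand only, were found in hsa-miR-4454 and hsa-miR-1260a, 2 of the 5 sequences. Of all 2370 mature human sequences in the table, 45 (1.90%) end this way. The run CACCA, which overlaps that end in both of these, stood anywhere in 3 of the 5 and in 42 of the 2370 (1.77%). Neither feature went with brightness among the other probes. On the array 34 probes outside the members matched a sequence ending in CCA, of which 3 were detected on all 6 arrays, and the median of their mean raw signals was 216.5 units. For CACCA these were 3 of 29 probes and 215 units. Of all 1688 probes matched to a sequence 202 were detected on all 6 arrays, with a median of 217 units. These are matches of letters, not evidence of a source.

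The members lie in different places of the genome. hsa-miR-4454 is at chr4:163093607-163093626 on the minus strand and hsa-miR-5100 at chr10:42997630-42997651 on the plus strand, and neither falls within the span of another gene of the RefSeq table. hsa-miR-1260b (chr11:96341447-96341465, plus strand) falls within the span of MAML2, a coactivator of Notch signalling. hsa-miR-1260a (chr14:77266231-77266248, plus strand) falls within that of NGB, which encodes neuroglobin. hsa-miR-4284 (chr7:73711327-73711344, plus strand) falls within that of STX1A, which encodes a syntaxin of the synaptic vesicle machinery. The table gives no exons, so exonic and intronic positions were not separated. Spans were matched by position without regard to strand, so a gene named here may lie on the strand opposite to the entry.

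A probe counted as detected where its raw foreground, the median of the spot's pixels, exceeded the array's blank-spot limit, the mean of its 925 empty spots plus 2 of their SDs. These limits were 209 to 247 scanner units, and 329 to 738 human probes exceeded them per array. All 5 hepatocyte miRNA markers, miR-122-5p among them, were detected on all 6 arrays. None of 6 blood markers, 3 of 9 stromal, endothelial and muscle markers and 1 of 3 neural markers were.

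hsa-miR-4454 read 65535, the scanner's maximum, on all 6 arrays, and it was the single human probe at that ceiling on each of them. Its signal is a lower bound in both groups, and no difference between the groups can be read from it. The pixel mean came to 65473, 65509 and 65531 on control arrays 1, 2 and 3, and to 64350, 65530 and 65447 on cisplatin arrays 1, 2 and 3. The lowest of these, on cisplatin array 1, had a pixel SD of 4783, so part of that spot lay below the ceiling. The local background around the spot was 141 to 171 units, within the range of 141 to 184 for the arrays' own median background.

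hsa-miR-1260b was the next brightest human probe on every array (rank 2 of 2019). Its raw signal was 19163, 25912 and 23385 on control arrays 1, 2 and 3, and 22494, 26837 and 27899 on cisplatin arrays 1, 2 and 3. The cisplatin arrays were the brighter ones on average, but the groups overlapped. hsa-miR-5100 held rank 3 throughout, with 18962, 21047 and 20158 units on the control arrays and 20638, 23779 and 23333 on the cisplatin arrays. Here too the lowest cisplatin array lay below the highest control array.

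hsa-miR-4286 held rank 4 on all 6 arrays. Its raw signal was 15893, 20480 and 19186 on control arrays 1, 2 and 3, and 16158, 20447 and 20230 on cisplatin arrays 1, 2 and 3. Same-numbered arrays of the 2 groups lay close together, and array 1 was the dimmest of its group in both. hsa-miR-4284 held rank 5, with 8847, 14255 and 13708 units on control arrays and 12621, 16340 and 17014 on cisplatin arrays. Control array 1 stood well below the other 5.

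hsa-miR-1260a did not belong to the brightest probes, since its rank ran from 17 to 25. It read 1696, 2014 and 2138 units on control arrays 1, 2 and 3, and 2004, 2306 and 2392 on cisplatin arrays 1, 2 and 3. This was 7.71 to 10.5 times the blank-spot limit, against 86.2 to 123 times for hsa-miR-1260b and hsa-miR-5100. Signals of different probes also depend on how well each probe binds, so these ranks order brightness and not the amount of RNA.

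The order of brightness among the unsaturated members, from hsa-miR-1260b over hsa-miR-5100, hsa-miR-4286 and hsa-miR-4284 down to hsa-miR-1260a, was the same on all 6 arrays. Just outside the 5 brightest human probes stood miR-122-5p, the main miRNA of hepatocytes, at 4337 to 5169 units (ranks 6 to 8), then miR-130a-3p at 3779 to 4998, miR-1273g-3p at 3540 to 4875, miR-17-5p at 2351 to 4059 and miR-3960 at 2727 to 3574. hsa-miR-4284 thus read above every one of these on each array. A probe of the array without a miRNA name, S-Probe1014, read 19733 to 34205 units, above hsa-miR-1260b on each array.

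**Figure D1:**
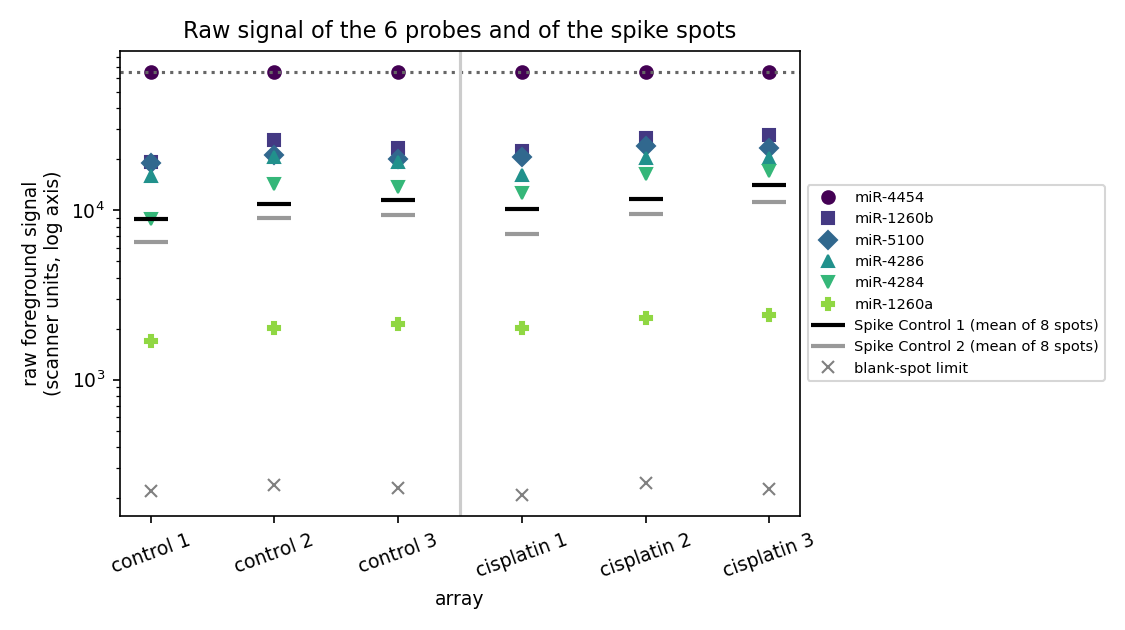
Raw foreground signal in scanner units (log axis) of the 6 probes on each array, with the mean of the 8 spots of each spike and the blank-spot limit; the dotted line is the scanner's maximum of 65535. hsa-miR-4454 sits on that line on all 6 arrays, 4 members lie between 8847 and 27899, and hsa-miR-1260a lies between 1696 and 2392.

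Few other catalogued miRNAs resemble the members. A run of at least 9 bases in common with a member was found in 7 further mature sequences, of which 5 have a probe of that name on the array. Of these, 2 are shown with the shared run in capitals.
hsa-miR-212-3p: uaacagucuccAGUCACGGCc
hsa-miR-1229-3p: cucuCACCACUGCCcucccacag
hsa-miR-212-3p shares 9 bases with hsa-miR-4454, and its probe read only 233 to 241 units, above the limit on 4 of 6 arrays. hsa-miR-1229-3p shares 10 bases with hsa-miR-1260b and read 189 to 251 units, above the limit on 2 arrays. The others, miR-6509-3p, miR-34b-3p and miR-3940-3p, read at most 232 units and were above the limit on at most 1 array. Runs of 9 or 10 bases therefore did not go with a bright signal on these arrays. The longest run, 13 bases, was shared by hsa-miR-7975 with hsa-miR-4454. No probe of that name is on the array, so the signal with a longer run was not seen.

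Before members can be compared between groups, the arrays must be put on 1 scale. The 16 spots of Spike Control 1 and 2, control probes apart from the human ones, were used for this. Their mean signal, less the blank mean, was 12.85, 13.24 and 13.31 on the log2 scale on control arrays 1, 2 and 3, and 13.04, 13.33 and 13.58 on cisplatin arrays 1, 2 and 3. The spikes were thus brighter on the cisplatin array of each number, with group means of 13.13 ± 0.25 and 13.32 ± 0.27 (SD, n = 3 each). The exact two-sided permutation test gave p = 0.4, where 0.1 is the smallest p that 3 against 3 arrays allow. As for the spikes, control array 1 was the dimmest array for each of the 5 unsaturated members. The difference of 0.18 between the groups' spike means was close to the median of the members' own unscaled log2 differences, which was also 0.18.

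After division by the spike factor, no unsaturated member differed between the groups in limma's moderated test with Benjamini-Hochberg adjustment over all 324 tested probes (0 of 5). The background is as low, with 0 of 324 probes past an adjusted p of 0.05 (0%) and 29 of 324 (8.95%) below an unadjusted 0.05. The 324 hold the saturated hsa-miR-4454 too, whose fitted value reflects almost only the spike factor and is not read. The unsaturated members had 2 positive and 3 negative log2 fold changes with a median of -0.0029, against a median of -0.016 over all tested probes. None of the 5 had an unadjusted p below 0.05. In a separate limma fit of the 243 probes detected on all 6 arrays, as the members were, 17 had an unadjusted p below 0.05.

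hsa-miR-1260b had scaled signals of 24638, 25397 and 21854 on control arrays 1, 2 and 3, and 25403, 24764 and 21606 on cisplatin arrays 1, 2 and 3. The groups nearly coincided, with means of 23963 ± 1865 and 23924 ± 2033 (SD, n = 3 each). The log2 fold change was -0.0029 (SE 0.18, 95% interval -0.42 to 0.42, limma adjusted p = 0.997). hsa-miR-5100 had means of 21259 ± 2843 and 21084 ± 2721 scaled units, and a log2 fold change of -0.012 (95% interval -0.48 to 0.45). The intervals reach a 1.34-fold change for hsa-miR-1260b and a 1.39-fold change for hsa-miR-5100. Changes up to that size are therefore not excluded.

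hsa-miR-4286 had scaled signals of 20390, 20029 and 17895 on control arrays 1, 2 and 3, and 18188, 18821 and 15623 on cisplatin arrays 1, 2 and 3. The cisplatin values were lower on average, and the groups overlapped. The log2 fold change was -0.15 (SE 0.18, 95% interval -0.57 to 0.27, limma adjusted p = 0.848). Without scaling between arrays it was 0.033, so its sign rests on the scaling.

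hsa-miR-4284 had scaled signals of 11238, 13877 and 12730 on control arrays 1, 2 and 3, and 14161, 15001 and 13114 on cisplatin arrays 1, 2 and 3. It had the largest positive value of the members, a log2 fold change of 0.16 (SE 0.19, 95% interval -0.26 to 0.59, limma adjusted p = 0.83). Again the groups overlapped. Without control array 1, its dimmest array, the value was 0.082.

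hsa-miR-1260a had scaled means of 1850 ± 88.0 without and 1909 ± 186 with the drug (SD, 3 arrays each). Its log2 fold change was 0.042 (95% interval -0.38 to 0.46), again with overlapping groups. The groups overlapped for all 5 members on the scaled and on the raw scale, while 15.7% of tested probes had groups without overlap on the scaled scale and 13% on the raw one. Of the 324 tested probes only 243 were detected on all 6 arrays, as the members were. The others entered the test through 1 group, which can by itself set the groups apart, so these shares may be too high as a background for the members.

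**Figure D2:**
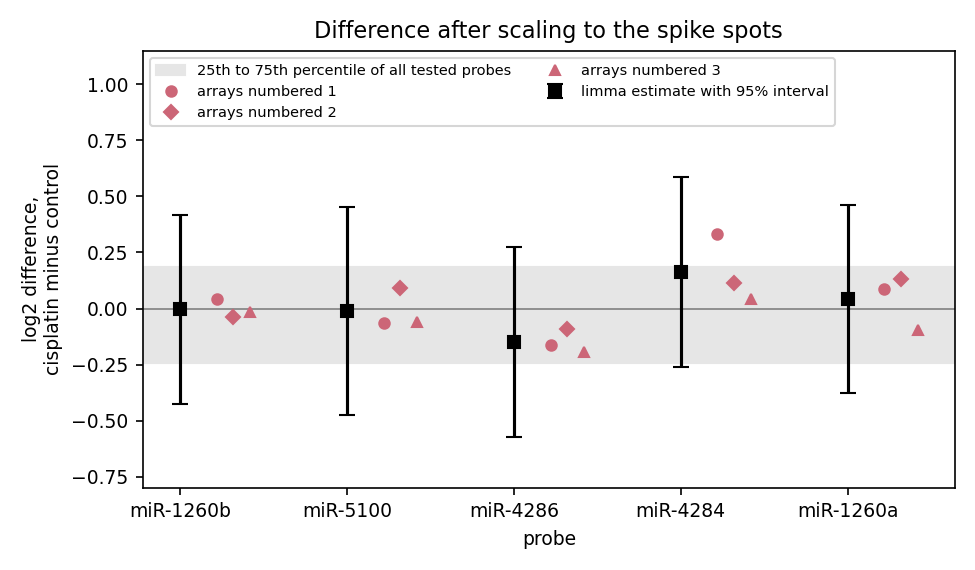
Log2 difference between cisplatin and control after scaling to the spike spots, for each unsaturated probe; squares and bars are the limma estimate and its 95% interval, coloured points the differences between arrays of the same number, and the grey band the 25th to 75th percentile of all tested probes. All 5 intervals span 0, and the estimates run from -0.15 for miR-4286 to 0.16 for miR-4284.

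A scaling by 1 factor per array moves all members together. Without scaling all 5 were positive, from 0.033 for hsa-miR-4286 to 0.35 for hsa-miR-4284, while the median of all tested probes was 0.16. With the values of the authors' deposited table all 5 were positive too (0.0028 to 0.32), with a median over the fitted probes of 0.14. Scaling to the median or to the 75th percentile of the detected probes, which uses no spike, gave values close to the spike scale, -0.16 and -0.16 for hsa-miR-4286 and 0.15 and 0.16 for hsa-miR-4284. Relative to the median of all probes, hsa-miR-4284 was above and hsa-miR-4286 below under each of these scalings. Since 1 factor per array moves that median along with the members, the repeat across these scalings adds no support. Quantile normalization gave the 4 unsaturated members of fixed rank the same value on every array, so it yields no fold for them. It gave -0.082 for hsa-miR-1260a, and cyclic loess, which also does not use 1 factor per array, gave -0.015.

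**Figure D3:**
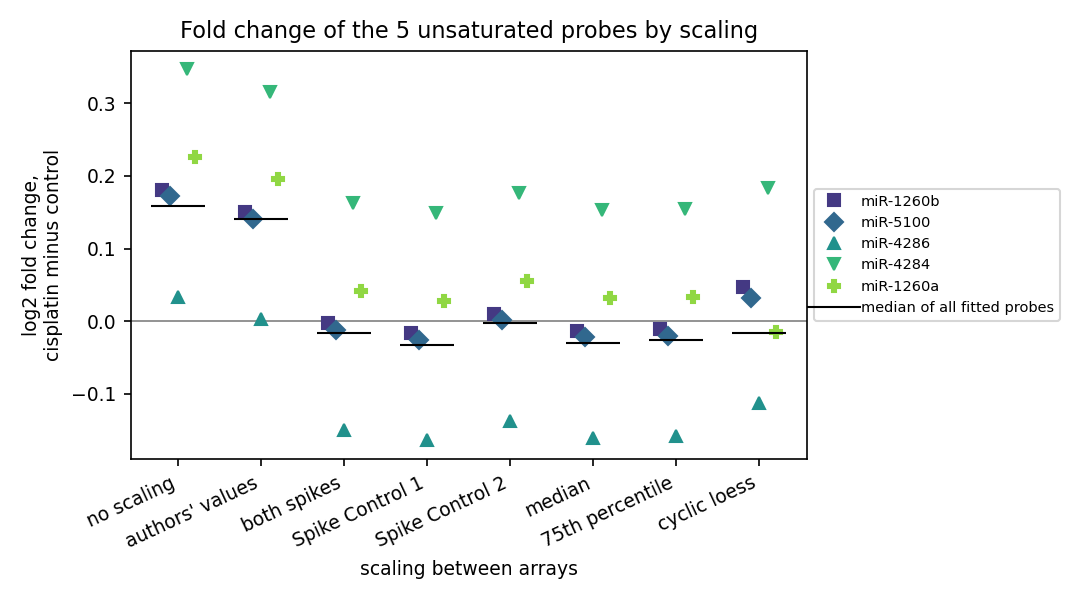
Log2 fold change of the 5 unsaturated probes under 8 ways of scaling the arrays, quantile normalization not among them; black bars are the median of all fitted probes. Without scaling and with the authors' values all 5 lie above 0 together with that median (0.16 and 0.14). hsa-miR-4284 is the highest and hsa-miR-4286 the lowest member under each of the 8. A factor common to all probes of an array cannot change this order, so its repeat across such scalings adds no support. Cyclic loess, which uses no such factor, gave 0.18 for hsa-miR-4284 and -0.11 for hsa-miR-4286.

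Ratios between probes on the same array need no scaling, and show whether a pair of probes changed unequally. All 10 pairs of the 5 unsaturated members were compared, each by exact permutation of the 6 arrays (two-sided). The widest difference was that of hsa-miR-4286 over hsa-miR-4284, whose log2 ratio was 0.86, 0.53 and 0.49 on control arrays 1, 2 and 3, and 0.36, 0.33 and 0.25 on cisplatin arrays 1, 2 and 3. Every cisplatin array lay below every control array. The group means were 0.63 ± 0.20 and 0.31 ± 0.056 (SD, n = 3 each), a difference of -0.31 (exact permutation p = 0.1, the smallest possible, and 0.333 after Benjamini-Hochberg adjustment over the 10 pairs). Without control array 1, which had the highest ratio, the difference was -0.20.

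Another 2 ratios with hsa-miR-4286 also had groups without overlap. Over hsa-miR-1260a the log2 ratio was 3.39, 3.49 and 3.30 on the control arrays and 3.13, 3.27 and 3.19 on the cisplatin arrays, a difference of -0.19. hsa-miR-1260b over hsa-miR-4286 stood at 0.27, 0.34 and 0.29 on the control arrays and at 0.48, 0.40 and 0.47 on the cisplatin arrays, a difference of 0.15. Each gave the same exact permutation p of 0.1 (adjusted 0.333). No pair can pass 0.05 in this permutation test with 3 arrays a group.

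The 3 of 10 pairs without overlap all contain hsa-miR-4286. Among all pairs of 242 unsaturated probes detected on all 6 arrays 17.8% had groups without overlap, and among pairs of the 20 brightest probes that are no members 40.5% did. The members' share of pairs is thus no higher than that of other bright probes. With 1 array left out groups separate more easily: the count was 5 of 10 without control array 3, where 26% of all those pairs and 46.3% of the pairs of other bright probes had groups without overlap. It was 5 of 10 without cisplatin array 1, where 31% and 56.3% did. The near-identical hsa-miR-1260b and hsa-miR-1260a kept close to the same ratio, a log2 value of 3.69 ± 0.13 without and 3.65 ± 0.029 with the drug (SD, n = 3 each; exact permutation p = 0.9).

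**Figure D4:**
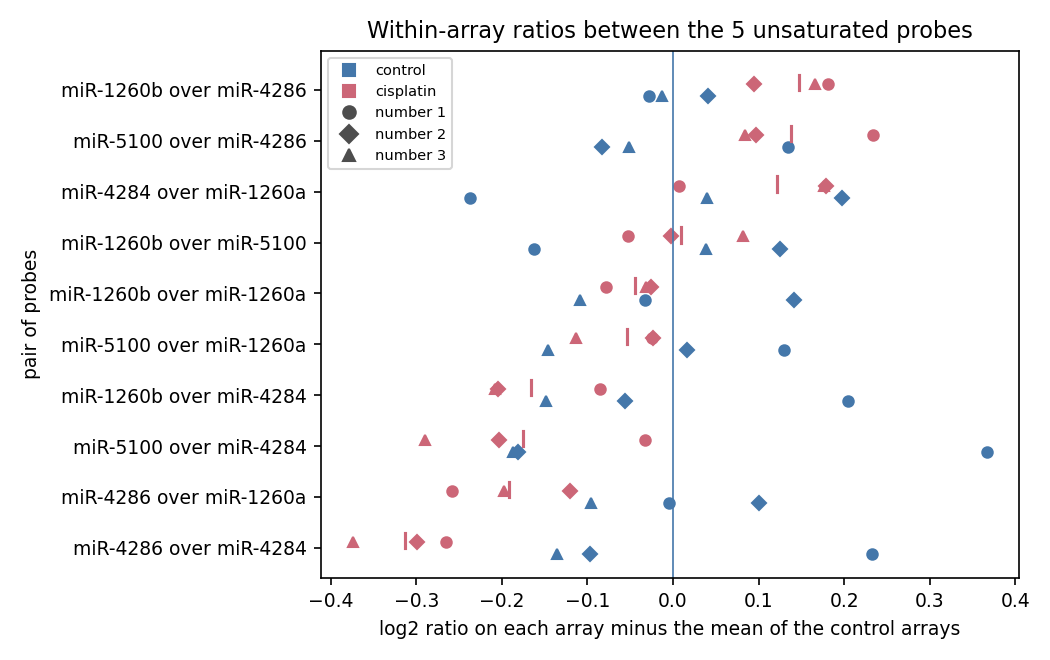
Log2 ratio between each pair of the 5 unsaturated probes on each array, less the mean of the control arrays; colours give the group, shapes the array number, and short vertical bars the cisplatin mean. The groups stand apart for miR-4286 over miR-4284 (-0.31), miR-4286 over miR-1260a (-0.19) and miR-1260b over miR-4286 (0.15), and overlap for the other pairs.

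The 6 members made up most of the summed signal. Of the blank-subtracted signal of the 243 probes detected on all 6 arrays they took 59.8%, 58.2% and 57.9% on control arrays 1, 2 and 3, and 58.6%, 55.2% and 56.2% on cisplatin arrays 1, 2 and 3. The means were 58.7% ± 0.996 and 56.7% ± 1.73 (SD, n = 3 each), and the groups overlapped (exact permutation p = 0.3). These shares are lower bounds, because hsa-miR-4454 alone took 23.4% to 30.3% at its ceiling and could not rise with the rest of the array. Without it the other 5 took 43.0% ± 0.758 and 42.3% ± 0.651 of what remained (exact permutation p = 0.4). Such shares are shares of light, not of molecules.

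Of the unsaturated members singly, hsa-miR-1260b took 8.80% to 10.1% of the summed signal and hsa-miR-5100 8.09% to 8.70%. hsa-miR-4286 took 6.76% to 7.98%, hsa-miR-4284 4.01% to 6.08% and hsa-miR-1260a 0.696% to 0.791%. This sum holds hsa-miR-4454 at its ceiling, so these shares are upper bounds, and their ranges depend on that ceiling. hsa-miR-5100 had the narrowest range relative to its level. hsa-miR-4284 had the widest, with its lowest share on control array 1.

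Brighter probes also tended to vary less between the arrays of a group. The SD within groups of the scaled log2 signal had a median of 0.12 over the 5 unsaturated members. This median was 0.17 over the 20 brightest tested probes (all members but hsa-miR-1260a included), 0.20 over those of rank 21 to 100 and 0.37 over the other 224. hsa-miR-4454 is among the 20 at its ceiling, so its SD of 0.26 is almost wholly that of the spike factor. Within a single spot the pixels of the unsaturated members varied with a coefficient of variation of 4.71% to 19.5%. Each probe has 1 spot per array, so spot-to-spot error within an array was not measured for the members. For the 8 spots of a spike it was 0.058 to 0.14 (SD, log2).

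The scaled profiles over the 6 arrays differed among the members. Pearson's r was 0.82 between hsa-miR-1260b and hsa-miR-5100, 0.77 between hsa-miR-1260b and hsa-miR-4286, 0.73 between hsa-miR-5100 and hsa-miR-4286, and 0.86 between hsa-miR-5100 and hsa-miR-1260a. It was 0.66 between hsa-miR-1260b and hsa-miR-1260a and 0.45 between hsa-miR-4286 and hsa-miR-1260a. For hsa-miR-4284 it ran from -0.17 to 0.29 with the other 4. All values on an array share 1 spike factor, which by itself makes profiles alike. Of 237 other probes detected on all 6 arrays, those most like the members' mean profile were miR-1273g-3p (r = 0.98), miR-25-3p (r = 0.97) and miR-6724-5p (r = 0.95), whose log2 fold changes were -0.015, 0.036 and -0.058.

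Other catalogue entries described as pieces of structural RNA were dimmer than the members, of which hsa-miR-1260a was the dimmest at 1696 to 2392 units. The members were picked for high signal on these arrays, so this difference is no result about such entries. Of 18 such probes on the array, 11 were tested, and their highest raw signals were 950 for miR-1973, 866 for miR-3648, 724 for miR-3651 and 719 for miR-1246. miR-3648 and miR-3687 lie in precursor ribosomal RNA, miR-1246 resembles the U2 small nuclear RNA, and miR-3651 and miR-664 overlap small nucleolar RNA genes. In limma 0 of the 11 passed (background 0%), 5 were higher and 6 lower, and their median log2 fold change was -0.0074 against -0.016 over all tested probes.

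Both arms of miR-3676, an entry that overlaps a transfer RNA gene, had the lowest values of these 11, -0.67 for miR-3676-3p (SE 0.26, unadjusted p = 0.0299, limma adjusted p = 0.449) and -0.47 for miR-3676-5p (SE 0.24, adjusted p = 0.6). Their raw signals were 219 to 296 units, close to the blank-spot limit. The other tested entries were miR-3648 at -0.22, miR-3651 at -0.12, miR-1246 at -0.10, miR-1973 at -0.0074, miR-3687 at 0.0023, miR-664b-3p at 0.071, miR-664a-3p at 0.16, miR-3607-3p at 0.19 and miR-4485 at 0.19. None of these 9 had an unadjusted p below 0.05.

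Control arrays lay at slide positions 3, 1 and 3 and cisplatin arrays at 4, 2 and 4, for numbers 1, 2 and 3. Every position thus held arrays of 1 group alone, and the effects of position and cisplatin cannot be told apart. Between the arrays at positions 1 and 2, 1 of each group, the scaled log2 difference was 0.11 for hsa-miR-4284 and -0.090 for hsa-miR-4286. Over the 4 arrays at positions 3 and 4 the fit gave 0.19 and -0.18, with 0 of 5 members past the threshold. For the other 3 members the sign differed between the sets, with -0.036 at positions 1 and 2 against 0.014 at positions 3 and 4 for hsa-miR-1260b, 0.090 against -0.063 for hsa-miR-5100, and 0.13 against -0.0024 for hsa-miR-1260a.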

How the data were processed

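Per the labels' protocols, total RNA of 3 control and 3 cisplatin samples was labelled with Hy5 by a commercial kit and hybridised to miRNA arrays of 3200 spots. The deposited scanner files give linear intensity, and per the file headers these are pixel medians and means of spot and local background in a channel named 532. The scanner model is not given in the sources used here. A table deposited by the authors holds intensity too, equal to the foreground median less the trimmed blank mean over 1 factor per array, with a median of 31 on every array; its scale and centring rule are otherwise unknown, and it was used as an alternative only.

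Here the foreground median less the mean of the 925 blank spots was divided by 1 factor per array, from the mean log2 signal of 16 Spike Control spots (none saturated), floored at 20 and put on the log2 scale. The test took the 324 probes above the blank-spot limit on every array of 1 group or both. Of the 2019 probes 15 carry several names. Groups were compared with lmFit and eBayes in limma 3.58.1 under R 4.3.3 (4 residual and 4.19 prior degrees of freedom), and single values with an exact two-sided permutation test in scipy 1.17.1. Figures used matplotlib 3.10.9. The number of arrays limits the precision. Data were simulated 20 times for each size of change, with 40 of the 324 probes changed. On average 0.125% of probes changed by 0.5 on the log2 scale were called, 59.5% of those changed by 1 and 94.3% of those changed by 2. Noise was drawn independently for each array from each probe's SD within groups. These shares thus cover probes of any brightness and are not those of the members.

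The members and lists were chosen with earlier results of these data known. The text names the 6 members, the 5 brightest other human probes, the tested structural-RNA entries and the 3 probes most like the members' mean profile. Sequences were matched by name to RefSeq for 1688 of the 2019 probes. Deviations from the group means correlated at 0.43, 0.14 and 0.087 between samples numbered 1, 2 and 3. Between samples of different numbers the values ran from -0.30 to 0.23. Those of numbers 2 and 3 lay within that range, so the numbers were not taken to pair the samples. A pairing is not excluded by this. Alternatives covered scaling, background, floor, filter, spot summary, moderation, block, slide position and single arrays left out. Each spike taken singly and positions 3 and 4 alone were added after seeing the data.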

Additional observations from a re-analysis of the deposited data

How the results depend on the processing

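No unsaturated member passed under any of the 25 alternatives, 6 of which left out 1 array. Quantile normalization could give no call for the 4 unsaturated members of fixed rank, since it sets each to the same value on every array. The number of all probes past the threshold was 0, and 1 with cyclic loess, 1 with normexp and quantile normalization, 2 with a floor of 10 and 4 with trend and robust moderation. With slide position as a random block it was 73, with 1 structural-RNA entry among them, but arrays of 1 position correlated negatively in that fit (-0.79), which makes its standard errors too small to rely on. It was 0 in each fit that left out 1 array. With a replicate block 0 probes passed too (55 at an unadjusted p below 0.05), so the block changed no call; it could not move a fold change. The block lowered the SE of each unsaturated member, that of hsa-miR-1260b from 0.18 to 0.13. Without it 29 probes had an unadjusted limma p below 0.05. The check of the numbers did not settle whether the block is called for.

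hsa-miR-4284 stayed positive and hsa-miR-4286 negative under most settings, hsa-miR-4284 under all that gave a fold. hsa-miR-4286 turned to 0.033 without scaling and to 0.0028 with the authors' values. The others lay near 0 and changed sign easily. hsa-miR-1260b turned to 0.18 without scaling, 0.15 with the authors' values, 0.047 with cyclic loess, 0.0011 with pixel means, 0.0090 with the random block, 0.011 with Spike Control 2 only and 0.014 at positions 3 and 4. hsa-miR-5100 turned to 0.17, 0.14, 0.032 and 0.017 with the first 4 of these, and to 0.0018 with Spike Control 2 only. hsa-miR-1260a turned to -0.015 with cyclic loess, -0.082 with quantile normalization and -0.0024 at positions 3 and 4. Quantile normalization gives no fold for the other 4. The median of all tested probes shifted to -0.15 without background subtraction.

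With 1 array left out, fold changes ranged from -0.068 to 0.069 for hsa-miR-1260b, from -0.096 to 0.096 for hsa-miR-5100, from -0.21 to -0.069 for hsa-miR-4286, from 0.082 to 0.23 for hsa-miR-4284 and from -0.019 to 0.12 for hsa-miR-1260a. The difference in the members' share ranged from -2.96 to -1.29 percentage points, and it was -1.28 over all human probes, where the groups did not overlap (exact permutation p = 0.1, the smallest possible). That share holds hsa-miR-4454 at its ceiling; without this probe, over probes detected on all 6 arrays, the difference was -0.68 with overlapping groups (exact permutation p = 0.4). Pairs of members without overlap numbered 3 to 5, with 5 without control replicate 3 and 5 without cisplatin replicate 1. The ratio of hsa-miR-4286 to hsa-miR-4284 ranged from -0.38 to -0.20. Of ratios that changed sign, hsa-miR-1260b over hsa-miR-5100 turned to -0.016 with pixel means and ranged from -0.072 to 0.071, hsa-miR-1260b over hsa-miR-1260a from -0.099 to 0.026, hsa-miR-5100 over hsa-miR-1260a from -0.13 to 0.011 and hsa-miR-5100 over hsa-miR-4284 from -0.27 to 0.0088. What caused these changes was not tested. The ceiling of hsa-miR-4454 and the single spot per probe limit what these arrays show of the members.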
